A study of Mus musculus with 7 samples.

Results

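The hair follicle stem cell genes examined here were 10 genes: the receptor genes Lgr5, Lgr6 and Lgr4, the transcription factor genes Tbx1, Lhx2, Nfatc1, Tcf7l1 and Cux1, and the surface protein genes Lrig1 and Cd34. They were measured by every probe set that the platform annotation assigns to 1 of these genes and to no other, which gave 28 probe sets out of 45037 non-control probe sets on the array, or 10 of 18193 genes. The 7 single-colour Affymetrix arrays held mouse RNA: 2 of dissected basal cell carcinoma tumours, 2 of newborn (P0) normal epidermis, and 3 of the basal cell carcinoma cell line PDKC1 without treatment (0 h) and after 6 h and 10 h with cyclopamine, an alkaloid that blocks Hedgehog signalling at the receptor protein Smoothened. The strain, genotype, age and driver of the tumours, the origin of PDKC1 and the dose of cyclopamine are not in the labels. The epidermis came from newborn animals and the tumours carry no age label, so age and carcinoma cannot be told apart in any difference between them. No label states whether the 2 arrays of a tissue are of different animals; the spread behind each p-value is that between these arrays and may be technical.

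Hair follicles are renewed from epithelial stem cells in the bulge, below the sebaceous gland, and in the hair germ beneath it; other stem cells occupy the isthmus and the junctional zone above. Growth of the follicle is started by Wnt signals, which R-spondin proteins strengthen by binding LGR receptors, while factors such as NFATc1 and TCF7L1 are known in mouse for holding bulge cells at rest or undifferentiated. Basal cell carcinoma is driven by Hedgehog signalling, and its cells resemble follicle epithelium under the microscope.

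All values are signal intensities per probe set, which have no absolute scale, so levels are compared between arrays for the same probe set and not between genes. Array medians were 118.2 and 127.9 for the tumours, 71.0 and 75.3 for epidermis and 72.1 to 78.1 for PDKC1. The ratio of 3' to 5' signal of the Actb control was 11.3 and 93.1 in the tumours, 3.98 and 2.84 in epidermis and 1.15 to 1.21 in PDKC1, so tumour RNA carried less 5' signal. The part of this in the results was not tested. Keratins of the basal layer were bright in all 3 materials. Krt5 had 27408.2 and 26658.7 in the tumours, 29427.1 and 35512.7 in epidermis and 31321.6 in PDKC1 at 0 h. Krt14 was lower in both tumours than in epidermis. It had 15396.8 and 7866.2 in the tumours, 24757 and 31303.8 in epidermis and 33584.7 in PDKC1 at 0 h. The summed intensity of 8 upper layer markers was 57174.9 and 37650.1 in the tumours, 188836 and 185597 in epidermis and 1302.7 in PDKC1 at 0 h.

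The first comparison, tumour against newborn epidermis, asks how the carcinoma differs from normal skin epithelium. The brightest probe set of each of the 10 genes was higher in the tumours. On log2(intensity + 16), limma called all 10 higher at an adjusted p under 0.05 and 0 lower, where 16.6% of all 18193 genes were called higher and 12.5% lower. The median difference, tumour minus epidermis, was 2.35 for the 10 genes, against 0.09 for all genes. In all 10 genes both tumours lay above both epidermis arrays, as they did for 35.8% of all genes (29.8% lay the other way). The genes were proposed as a set with earlier results of these arrays known, so this count describes these genes and does not measure how often follicle genes are higher. In dissected tissue, more cells of a type and more RNA per cell cannot be told apart.

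**Figure D1:**
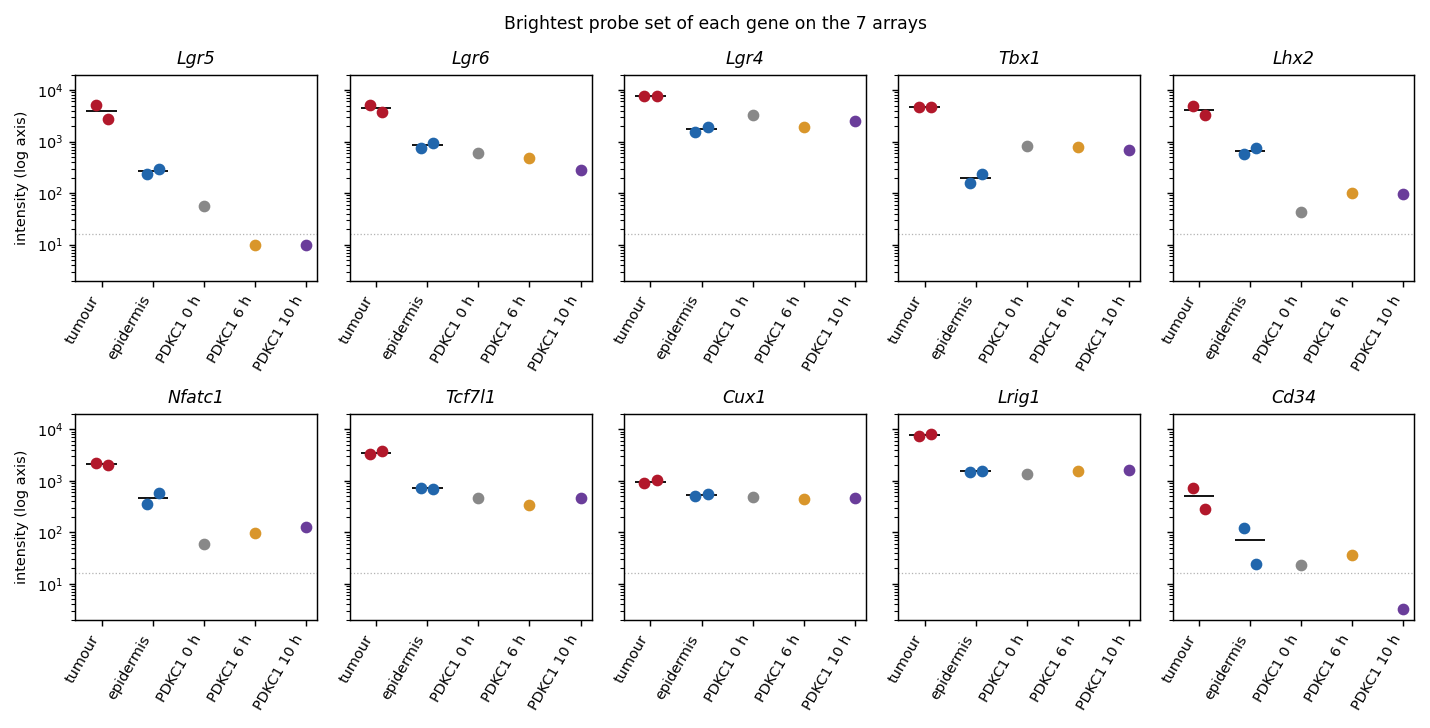
Intensity of the brightest probe set of each gene (vertical log axis) on each array, grouped along the horizontal axis as tumour, epidermis and PDKC1 at 0, 6 and 10 h; black bars are means of 2 arrays and the dotted line is the pseudocount of 16. In every panel both tumour points lie above both epidermis points and above the 3 PDKC1 points.

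The R-spondin receptor genes were higher in the tumours. Lgr5, which marks cycling stem cells of the lower bulge and hair germ in mouse, had 5217.7 and 2788 in the tumours, against 233.5 and 297.3 in epidermis. Tumour 1 had the higher value, and the lower tumour was still far above both epidermis arrays. The log2 difference was 3.78 ± 0.34 (SE, 2 arrays per group; adjusted p = 0.000877), or 13.7-fold. A second probe set of Lgr5 had 677.6 and 600.4 in the tumours, against 40.3 and 24.0 in epidermis. Its difference was also 3.78 (± 0.40, adjusted p = 0.000891 over all probe sets), so both measures of Lgr5 gave the same size.

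Lgr6, which marks stem cells of the isthmus in mouse, had 5157.5 and 3739.5 in the tumours, against 754.4 and 928.2 in epidermis (log2 difference 2.37 ± 0.25, adjusted p = 0.00123). Its other probe set had 263.4 and 146.6 in the tumours, against 141.2 and 205.9 in epidermis. There the groups overlapped and the difference of 0.19 ± 0.43 did not pass the test (adjusted p = 0.797), so the rise of Lgr6 rests on 1 of its 2 probe sets. Lgr4, the receptor gene of the family that is active in many epithelia, had 7789.4 and 7506.1 in the tumours, against 1529.8 and 1926.3 in epidermis (2.14 ± 0.21, adjusted p = 0.00109). The tumours were close to each other and well apart from epidermis. The other Lgr4 probe set was dim, with 6.9 and 133.2 in the tumours, against 10.5 and 5.8 in epidermis, and was not called (1.28 ± 0.83, adjusted p = 0.317). It was called without tumour 1 (2.63, adjusted p = 0.0139).

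All 5 transcription factor genes were higher in the tumours, by sizes that ranged widely. Tbx1, a T-box factor gene active in mouse follicle stem cells, showed the largest difference of the 10 genes. Its single probe set had 4643.6 and 4702 in the tumours, against 154.7 and 229.8 in epidermis (4.52 ± 0.26, adjusted p = 0.000432), or 22.9-fold. The 2 tumours were almost equal. Lhx2, a LIM-homeodomain factor gene needed to maintain follicle stem cells in mouse, also has 1 probe set. It had 4888.6 and 3345.4 in the tumours, against 585.9 and 738.8 in epidermis (2.59 ± 0.26, adjusted p = 0.00116).

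Nfatc1 encodes a calcium-regulated factor that keeps mouse bulge cells quiescent. Its brightest probe set had 2258.3 and 1995.8 in the tumours, against 350.7 and 578.5 in epidermis (2.20 ± 0.29, adjusted p = 0.00264). Of its 5 probe sets 4 were called higher, with differences of 1.77 to 3.31. In the fifth the tumours, at 221.9 and 227.4, were still above epidermis, at 76.2 and 127.8, but the difference of 1.06 ± 0.42 did not pass the test (adjusted p = 0.105). Tcf7l1, the gene of a Wnt-pathway factor that represses its targets, had 3309.7 and 3752.1 in the tumours, against 729.6 and 707 in epidermis (2.27 ± 0.20, adjusted p = 0.000907). Its second probe set differed by 1.97 ± 0.26 (adjusted p = 0.00203), so both were called in the same direction.

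Cux1, a homeodomain factor gene with several transcript forms, had the smallest and least certain difference. Its brightest probe set had 903.1 and 1018.3 in the tumours, against 497.5 and 556.1 in epidermis (0.85 ± 0.24, adjusted p = 0.0366). The 9 probe sets of Cux1 disagreed. In 5 of them the tumours were called higher, with differences of 0.85 to 2.72, the largest in a probe set with 522.5 and 757 in the tumours, against 58.8 and 112.4 in epidermis (2.72 ± 0.41, adjusted p = 0.00301). The other 4 were not called. A pair of these lay lower in both tumours, one with 56.3 and 59.2 in the tumours, against 101.5 and 60 in epidermis (-0.36 ± 0.51, adjusted p = 0.666), and one with 32.3 and 21.6 in the tumours, against 93.6 and 55.8 in epidermis (-1.06 ± 0.52, adjusted p = 0.187). The last has an identifier ending in _x_at, which Affymetrix gives to probe sets that may bind other sequences, and centring the arrays on their medians called it lower (-1.70, adjusted p = 0.0453). The Cux1 call was lost in 7 of 13 alternatives, among them that with the mean of all its probe sets. All are named further below.

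The surface protein genes were higher as well. Lrig1, whose product limits EGF receptor signalling and marks the junctional zone in mouse, had 7424.7 and 8060.6 in the tumours, against 1471.1 and 1569.8 in epidermis (2.34 ± 0.20, adjusted p = 0.000752). A second probe set gave 2.44 ± 0.22 (adjusted p = 0.000618). The third was near the array medians, with 83.2 and 86.8 in the tumours, against 71.2 and 108.2 in epidermis, where the groups overlapped (-0.04 ± 0.48, adjusted p = 0.960). Cd34, a sialomucin gene that marks the mouse bulge and also blood vessel endothelium, had 713 and 287.2 in the tumours, against 120.4 and 24.8 in epidermis. The groups did not overlap, but the arrays of each group lay far apart, and the difference of 2.66 ± 0.68 passed the test less clearly (adjusted p = 0.0281). The call of Cd34 depended on single arrays: it was lost without tumour 1 (2.02, adjusted p = 0.0727) and without epidermis array 2 (1.79, adjusted p = 0.146).

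**Figure D2:**
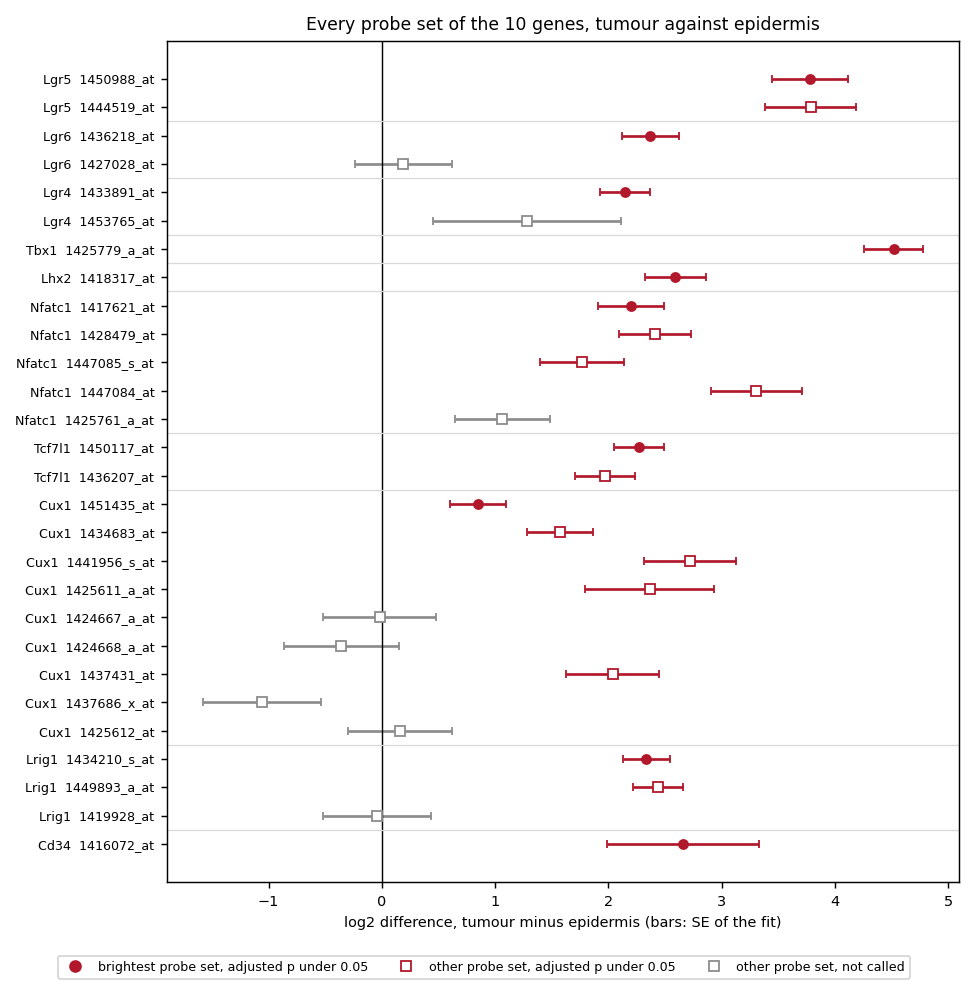
Log2 difference, tumour minus epidermis (horizontal axis, bars are the SE of the fit on 2 arrays per group), for each of the 28 probe sets, grouped by gene down the vertical axis. Red marks are called and grey ones are not; Lgr5 and Tcf7l1 agree over their probe sets, while Cux1 runs between -1.06 and 2.72.

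Over all 28 probe sets, 20 were called higher and 0 lower, where 18.3% of the 45037 probe sets were called higher and 9.17% lower. The tumours lay above epidermis without overlap in 22 (38.4% of all probe sets), below it in 2 (25.0% of all) and overlapped in 4. Probe sets of 1 gene share their transcript and are no independent measures. The median difference was 2.17 for the 28, against 0.19 for all probe sets.

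Another scaling shifted all genes, and the members with them. The median of all genes was 0.09 as reported, -0.19 with quantile normalization and -0.55 after centring of the arrays on their medians. Relative to that median, the median of the 10 genes was 2.26 as reported, 2.59 with quantile normalization and 2.26 with centring. With quantile normalization 8 of the 10 were called higher, where 11.9% of all genes were higher and 14.8% lower. With centring 8 were called higher, where 8.04% of all genes were higher and 25.9% lower. Both times the genes that dropped out were Cd34 (adjusted p = 0.101 and 0.0667) and Cux1 (0.114 and 0.541). The other 8 genes were called in all 13 alternatives.

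**Figure D3:**
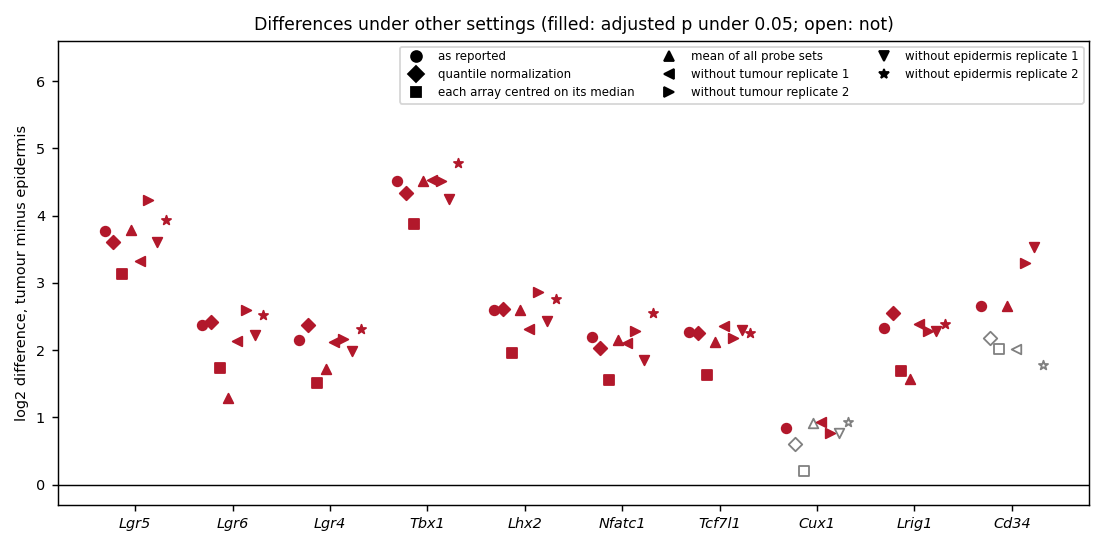
Log2 difference, tumour minus epidermis (vertical axis), of each gene (horizontal axis) as reported and under 7 other settings; filled red marks are called at an adjusted p under 0.05 and open grey ones are not. Every difference is above 0, and open marks occur for Cux1 and Cd34 alone.

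Cux1 was also not called with the mean of all probe sets (0.92, adjusted p = 0.0695), with no trend in the variance (0.0860), or when epidermis array 1 (0.291) or 2 (0.213) was left out. Cd34 was not called with no trend in the variance (0.0595). Without epidermis array 1 or 2 fewer genes were called higher in all, 4.62% and 5.30%, and 9 and 8 of the 10 members were called. Without tumour 1 or 2 it was 9 and 10 members, where 19.5% and 17.4% of all genes were called higher.

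Other genes of follicle epithelium moved unevenly. Of 24 such genes 23 were measured. Of these 13 were called higher, 1 lower and 9 were not called, where 16.6% of all genes were called higher and 12.5% lower. Their median difference was 1.26, against 0.09 for all genes. With centring 10 were called higher and 2 lower, where 8.04% of all genes were higher and 25.9% lower. Among the higher ones, Bmp6, a bone morphogenetic protein gene, had 2048.9 and 1337.9 in the tumours, against 60.5 and 31.2 in epidermis (4.80 ± 0.39, adjusted p = 0.000713). The bulge keratin gene Krt24 differed by 4.28 ± 0.68 (adjusted p = 0.00504), the Wnt inhibitor gene Wif1 by 4.04 ± 0.51 and the zinc-finger factor gene Trps1 by 3.72 ± 0.36. The bulge marker Krt15, by contrast, had 23732.9 and 13433.7 in the tumours, against 24436.3 and 30782.5 in epidermis, and did not pass the test (-0.62 ± 0.33, adjusted p = 0.216). Krt15 and the lower gene, Hopx (-1.49 ± 0.33, adjusted p = 0.0170), were named after their values were seen. Without tumour 1, 4 of these genes were called lower; without epidermis array 1 or 2, 9 were called higher and 0 lower.

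Genes of the pathway around the LGR receptors were mostly not called. Of 10 R-spondin and Wnt receptor pathway genes 1 was called higher, 0 were called lower and 9 were not called, with a median difference of 0.00 against 0.09 for all genes. Among all genes 16.6% were called higher and 12.5% lower, so most genes were not called there either. The called gene was Lrp6, a Wnt co-receptor gene (1.76 ± 0.27, adjusted p = 0.00459), which was not called without either epidermis array. None of the ligand genes Rspo1, Rspo2, Rspo3 and Rspo4 was called. Rspo1 had 146.9 and 158.6 in the tumours, against 50.5 and 63.5 in epidermis, groups that did not overlap (1.21 ± 0.41, adjusted p = 0.0693). The ubiquitin ligase gene Znrf3, whose product the receptors clear from the membrane, had 1342.7 and 1276.6 in the tumours, against 1118.4 and 1081.7 in epidermis (0.25 ± 0.21, adjusted p = 0.428). Axin2, a Wnt feedback gene, had 864.1 and 465.2 in the tumours, against 1319.8 and 1178.3 in epidermis (-0.96 ± 0.32, adjusted p = 0.0674). Centring called 2 genes of this list lower, as did leaving out tumour 1. Rspo1 to Rspo4, Znrf3 and Axin2 were likewise named after their values were seen.

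Markers of other cells were called to unlike extents, where 16.6% of all genes were called higher and 12.5% lower. Of 12 endothelial markers 5 were called higher, the largest Vwf (3.04 ± 0.43), Tek (2.39 ± 0.45), Flt1 (2.34 ± 0.44) and Eng (2.24 ± 0.62); without epidermis array 1 or 2 it was 1 and 2 of them. Their summed intensity was 2612.9 and 1921.5 in the tumours, 783.6 and 673.6 in epidermis and 646.3 in PDKC1 at 0 h; Pecam1 had 13.2 and 14.5 in the tumours, under the pseudocount. Of 11 fibroblast markers 10 were higher (summed 78079 and 93300.4 in the tumours, 21129.5 and 16675.2 in epidermis). Of 13 skeletal muscle markers 4 were higher (19168.7 and 3588.2 in the tumours, 816.6 and 903.8 in epidermis), as were 5 of 8 mast cell markers, 2 of 4 adipocyte markers and 1 of 9 haematopoietic markers. These counts depended on single arrays: 10 muscle markers were called without tumour 2 and 2 without either epidermis array. Without epidermis array 1 or 2, 3 and 2 mast cell markers were called and 0 adipocyte or haematopoietic ones; without tumour 1 it was 0 adipocyte and 2 haematopoietic markers. Fits without an epidermis array also called a smaller share of all genes higher, as given above. Smaller counts in those fits were therefore not particular to these markers. No gene of these lists was at 0 on any array. Of 8 upper epidermal markers 7 were lower in the tumours, and of 6 basal markers 1 was higher and 1 lower, neither of them without epidermis array 1 or 2; without tumour 2, 3 basal markers were higher. The part of these cells in the difference of Cd34, or of any other member, was not tested. All 5 Hedgehog targets measured were called higher (4 with centring), the largest Hhip (6.89 ± 0.42, adjusted p = 0.000436), Gli1 (3.04 ± 0.28), Mycn (2.62 ± 0.20) and Ccnd1 (1.88 ± 0.21). Gli1 is also on the follicle list.

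Promoter windows from RefSeq (GRCm38.p6) were searched for 8 of the 10 genes, all but Lgr5 and Nfatc1. The search left out member windows of a single chromosome, which the count over all windows kept. The 10 windows searched hold 300 bases each, from 250 bases before an annotated start to 50 bases past it. Since the members were higher together, the windows were searched on both strands for a GLI site (GACCNCCCA), a TCF/LEF core (CTTTGA), a T-box core (GGTGTGA) and a LIM-homeodomain core (TAATTA). None of the 10 windows held any of them; over all 32851 windows 0.977%, 16% (CTTTGA), 3.98% (GGTGTGA) and 5.29% (TAATTA) did. The CCAAT box (CCAAT), for which the CUX1 protein was once called CCAAT displacement protein, was in 2 windows, those of Lgr4 and Lrig1, and in 37.4% of all windows. The GC box (GGGCGG) was in 5 member windows and in 35.7% of all. The member windows had a median of 68.3% G and C, against 52.7% for all windows, and the part of this in the matches was not tested. The windows below are of Tbx1, the gene with the largest difference (the 1 of its 2 windows that holds a GC box), and of the CCAAT-holding Lgr4 and Lrig1, read 5′ to 3′ along the gene, with CCAAT and GC boxes in capitals (CCGCCC is the GC box on the other strand).
Tbx1 chr16:18588850-18589149, strand -: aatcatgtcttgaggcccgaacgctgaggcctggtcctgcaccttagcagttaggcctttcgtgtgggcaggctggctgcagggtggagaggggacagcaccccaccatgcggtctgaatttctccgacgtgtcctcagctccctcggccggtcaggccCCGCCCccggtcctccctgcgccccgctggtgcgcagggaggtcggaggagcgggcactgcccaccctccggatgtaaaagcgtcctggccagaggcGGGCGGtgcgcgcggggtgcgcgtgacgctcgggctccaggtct
Lgr4 chr2:109917397-109917696, strand +: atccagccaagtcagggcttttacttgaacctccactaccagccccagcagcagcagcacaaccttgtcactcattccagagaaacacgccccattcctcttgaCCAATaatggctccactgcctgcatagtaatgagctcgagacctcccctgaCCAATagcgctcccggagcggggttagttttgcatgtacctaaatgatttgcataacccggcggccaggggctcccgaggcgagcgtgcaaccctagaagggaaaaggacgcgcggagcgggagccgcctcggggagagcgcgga
Lrig1 chr6:94700096-94700395, strand -: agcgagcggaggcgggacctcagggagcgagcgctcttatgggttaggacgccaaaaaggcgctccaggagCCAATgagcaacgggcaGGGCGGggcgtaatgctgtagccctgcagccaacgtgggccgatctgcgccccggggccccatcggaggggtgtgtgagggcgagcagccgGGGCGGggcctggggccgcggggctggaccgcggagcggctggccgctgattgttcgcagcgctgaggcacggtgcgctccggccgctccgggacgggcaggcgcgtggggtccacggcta
Lgr4 held CCAAT at 2 places, 146 and 95 bases before the start, each time preceded by ga and followed by a. In Lrig1 CCAAT lay 179 bases before the start and GC boxes 162 and 71 bases before it. This Tbx1 window held GC boxes but no CCAAT, and the other Tbx1 window held neither. A match in these letters shows no binding, and no match says only that the letters are absent from this window.

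In untreated PDKC1 cells the brightest probe sets of the members were lower than in the tumours. By their brightest probe sets all 10 genes lay below both tumours (47.4% of all genes did), and 9 were at least 2-fold below the tumour mean (27.3% of all genes). The cells were 1 array and were labelled from 2000 ng of RNA against 100 ng for the tissues, so this is a description with no test, and the RNA input and the material cannot be told apart. Lhx2 stood furthest below, at 42.8 in PDKC1, a log2 difference of -6.11 from the tumour mean, and Lgr5 next, at 55.1 (-5.75). Nfatc1, at 58.4, differed by -4.85, and these 3 alone of the members were also at least 2-fold under the epidermis mean, as were 21.3% of all genes. These 3 intensities lay below the median probe set of the array, 78.1.

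Against epidermis the order differed by gene. Of the 10 genes 8 were below both epidermis arrays (44.7% of all genes) and 2 above both (40.1%). Only Tbx1 among them was at least 2-fold over the epidermis mean (17.5% of all genes). Tbx1 had 831.6 in PDKC1, a log2 difference of 2.05 from the epidermis mean and -2.47 from the tumour mean. Lgr4 had 3276.1, differences of 0.93 from epidermis and -1.22 from the tumours. For both genes the order was therefore tumour, PDKC1, epidermis, whereas for the brightest probe sets of the others it was tumour, epidermis, PDKC1. Other probe sets went against this. The second Lgr5 probe set had 62.0 in PDKC1, above both epidermis arrays (0.72 from their mean, and -3.07 from the tumour mean), so the low place of Lgr5 rests on 1 of its 2 probe sets. The second Lgr6 probe set, at 276.7 in PDKC1, lay above both epidermis arrays (0.65) and both tumours (0.46), and 4 of the 9 Cux1 probe sets lay above both epidermis arrays. Several Cux1 probe sets also lay above both tumours, such as that with 156.7 in PDKC1, against 103.8 and 85.3 in the tumours. So did the third Lrig1 probe set, with 137 in PDKC1, against 83.2 and 86.8 in the tumours. Lrig1 (1360.4 in PDKC1, -0.16 from epidermis) and Cux1 (493.8, -0.09 from epidermis) stood so close to epidermis that their order there is not resolved by 1 array, and a second Lrig1 probe set, at 1626.3 in PDKC1, was 0.93 above the epidermis mean. The order of the dim Cd34 is not resolved either, with 22.8 in PDKC1, against 120.4 and 24.8 in epidermis.

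The second comparison asks what cyclopamine changes in PDKC1 cells. With 1 array per time there is no replicate check and no test. Among the Hedgehog targets, Gli1 differed from 0 h by -2.04 at 6 h and -2.06 at 10 h on the log2 scale, Ptch1 by -1.65 and -1.96 and Mycn by -1.59 and -1.73. Hhip differed by -0.39 and -1.54, and Ccnd1 by 0.05 and -0.35. Of the members 8 were over the array median at some time. None of the 10 differed by 2-fold or more, one way, at 6 h and again at 10 h while over that median; 0.924% of the 11585 such genes were higher and 1.01% lower by that rule. At 1.5-fold, 2 members were higher, Lhx2 and Nfatc1 (2.56% of genes), and 0 lower (2.82%). The median difference of the 10 members was -0.13 at 6 h and -0.18 at 10 h, against -0.01 and 0.01 for all these genes.

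Single members changed in different ways. By their brightest probe sets the R-spondin receptor genes were all lower after cyclopamine. Lgr5 had 55.1 at 0 h, 9.9 at 6 h and 9.7 at 10 h, so the treated values lay under the pseudocount of 16. The log2 difference from 0 h was -1.46 at 6 h and -1.47 at 10 h, and Lgr5 did not enter the counts above because its brightest value was under the array median. Its second probe set had 62.0, 30.9 and 25.2, in the same direction (-0.73 and -0.92). The size of the Lgr5 difference depended on the pseudocount, being -2.09 at 6 h with 4 and -0.69 with 64.

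Lgr6 had 607.3 at 0 h, 474.8 at 6 h and 284.4 at 10 h, differences of -0.34 and -1.05, and its other probe set followed with -0.15 and -0.79. At 10 h 4.47% of the genes differed from 0 h by as much as Lgr6. Lgr4 had 3276.1, 1930.2 and 2537.8 at the 3 times (-0.76 and -0.37), so the lowest value of this probe set was at 6 h. The dim Lgr4 probe set had 30.2, 35.9 and 5.2 (0.17 and -1.12), not lower at 6 h.

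Lhx2 and Nfatc1 were higher after cyclopamine. Lhx2 had 42.8 at 0 h, 102.2 at 6 h and 94.1 at 10 h (1.01 and 0.90), values that remained far under the 3345.4 of the lower tumour. Nfatc1 had 58.4, 97.1 and 124.8 (0.60 and 0.92) in its brightest probe set. Its other 4 probe sets did not show this. Their differences ran from -0.27 to 0.07 at 6 h and from -1.11 to 0.31 at 10 h, and the mean over all 5 was 0.00 and 0.04. With a pseudocount of 64 the brightest probe sets differed by 0.64 and 0.57 for Lhx2 and by 0.40 and 0.63 for Nfatc1. Neither gene then reached 1.5-fold at both times.

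The brightest probe sets of the remaining members differed less, apart from Cd34. Tbx1 had 831.6, 769.3 and 691.8 (-0.11 and -0.26), Tcf7l1 had 466.4, 341.6 and 472.1 (-0.43 and 0.02) and Lrig1 had 1360.4, 1581.2 and 1592.1 (0.21 and 0.22). The second Tcf7l1 probe set went the other way at 6 h, with 240.2, 297 and 252.3 (0.29 and 0.07). Cux1 had 493.8, 443.6 and 461.4 (-0.15 and -0.09). Its other probe sets did not share a direction: one had 221.8, 73.4 and 262.8 (-1.41 and 0.23), another 44.4, 101.4 and 85.3 (0.96 and 0.75), and a dim one 41.9, 2.9 and 16.1 (-1.62 and -0.85). Cd34 was dim throughout, at 22.8, 36.4 and 3.2, so its differences of 0.43 and -1.01 lie near the floor of the arrays.

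**Figure D4:**
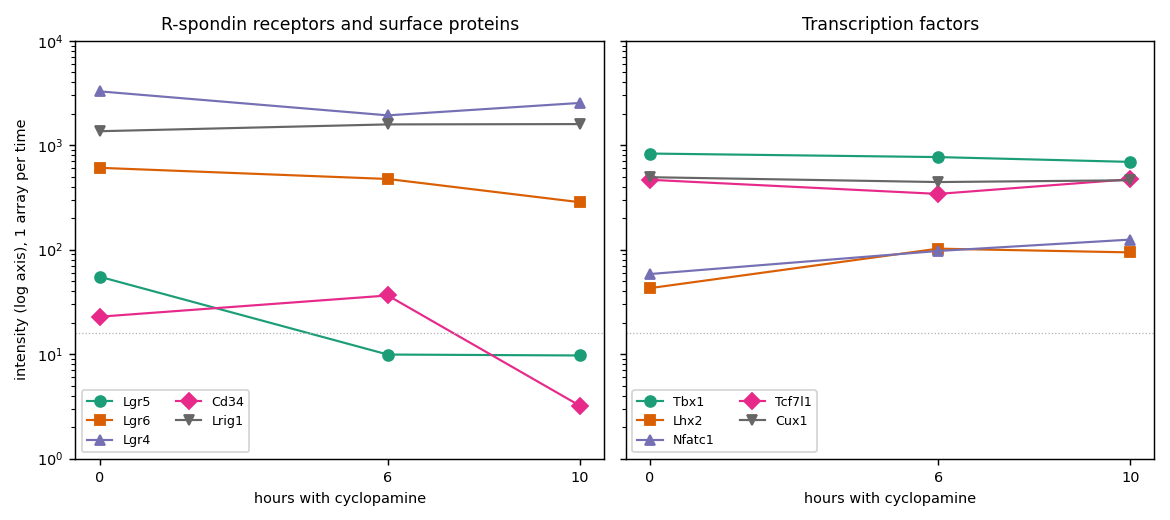
Intensity (vertical log axis) of the brightest probe set of each gene in PDKC1 at 0, 6 and 10 h with cyclopamine (horizontal axis), 1 array per time, with receptors and surface proteins on the left and transcription factors on the right; the dotted line is the pseudocount of 16. Lgr5 lies under that line at 6 h and 10 h, while Lhx2 and Nfatc1 lie above their 0 h values.

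The genes most like each member over the 7 arrays were found by the root mean square difference of log2 values centred on each gene's own mean. Nearest to Lgr5 were Synpo2 (0.44), Shisa2 (0.48) and Col6a3 (0.49). Tbx1 was closest to 4933439C10Rik (0.17), Tle2 (0.22) and Zfp950 (0.32). Tle2, a gene of the Groucho co-repressor family, had 510.7 and 604.5 in the tumours, 10.3 and 12.2 in epidermis and 84.1 in PDKC1 at 0 h, the same order as Tbx1. For Lhx2 the nearest were Nid1 (0.34), Lama2 (0.36) and Sned1 (0.39), and for Cd34 they were Cd93 (0.30), Lama4 (0.38) and Gnmt (0.39). Lgr6 was nearest to Creb5 (0.24) and Lgr4 to 5031434O11Rik (0.12), while Nfatc1 was nearest to Lifr (0.29). The first neighbours of Tcf7l1, Lrig1 and Cux1 were Dzank1 (0.11), Gm15545 (0.12) and Scaper (0.08). With 7 arrays and 14049 genes searched, such likeness describes these arrays and was not tested.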

How the data were processed

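The deposited table holds 1 linear signal intensity per probe set and array, as made by the authors from Affymetrix arrays; their software and scaling: not given in the sources used here. Per the labels' protocols, labelling began with 100 ng of tissue RNA or 2000 ng of PDKC1 RNA. The number of arrays limits the precision. Probe sets were named from the platform annotation, with symbols updated through Entrez identifiers: 34945 had 1 gene, 932 several and 9160 none; 64 control probe sets were left out. Values were taken as log2(intensity + 16) with no further normalization and no filter. For each gene the probe set with the highest mean stood for it.

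Tumour and epidermis (2 arrays each) entered a limma 3.58.1 fit under R 4.3.3 (lmFit, then eBayes with a trend in the variance), over 18193 genes and over 45037 probe sets, two-sided, with Benjamini-Hochberg adjustment and calls at an adjusted p under 0.05. PDKC1 differences had no test. The text names every member, up to 3 genes nearest to each in pattern, up to 4 called genes by size of difference for the follicle, R-spondin, endothelial and Hedgehog lists (the other lists are given as counts, though the rule covers them too), and members at least 1.5-fold from 0 h in PDKC1. The members and gene lists were chosen with earlier results of these data known, and the promoter motifs with these results known. The correlation of same-numbered deviations between the tissues was -0.000903, and no label ties the numbers across tissues.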

Additional observations from a re-analysis of the deposited data

How the results depend on the processing

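The log2 differences of the 10 genes kept their direction in every alternative, and 117 gene results kept their side of the threshold while 12 lost the call, all of Cd34 or Cux1. Between 8 and 10 genes were called higher when 1 array was left out. Of the 28 probe sets 19 and 20 were called without tumour 1 and 2 (20.3% and 16.1% of all probe sets), and 15 without either epidermis array (7.71% and 8.82%). With the replicate block 9 genes and 19 probe sets were called higher (15.9% of all genes, 19.2% of all probe sets), Cux1 losing its call (adjusted p = 0.0607); the shared numbers name no pairing. Of the probe set results 299 kept their direction and their side, 10 turned direction without a call, 23 lost the call and 2 gained it. Leaving out features under the 40th percentile removed Cd34 and called the other 9 higher. Of the 10916 genes left, 24.9% were called higher. Centring each array on its median called 1 probe set lower, of Cux1. In PDKC1 the count at both times was 1 higher with a pseudocount of 4 (Lhx2) and 2 higher at 1.5-fold, and 1 lower with no filter on level (Lgr5).

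Directions turned only in probe sets that were not called as reported. The second Lgr6 probe set was at -0.60 with quantile normalization, -0.45 with centring, -0.20 without tumour 1 and -0.06 without epidermis array 1; leaving out single arrays gave -0.20 to 0.58. The dim Lgr4 probe set ran between -0.070 without tumour 2 and 2.63 without tumour 1, where it was called, and the third Lrig1 probe set was at 0.21 without epidermis array 2 (-0.30 to 0.21 over the fits without 1 array, -0.68 with quantile normalization and with centring). Of the Cux1 probe sets 1 was at 0.10 without tumour 2 and 0.39 without epidermis array 2 (-0.42 to 0.39 over the fits without 1 array, -0.68 with quantile normalization, -0.66 with centring), and another at -0.20 with quantile normalization and -0.48 with centring. The cause was not tested for any of these.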

Other observations

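Some other follicle genes, named after their values were seen, also differed among the PDKC1 arrays or between PDKC1 and the tissues. Krt75, a companion layer keratin gene, had 78.0 at 0 h, 29.5 at 6 h and 19.2 at 10 h of cyclopamine, log2 differences of -1.05 and -1.42. Plet1, a marker gene of the follicle junctional zone, had 89.0, 22.4 and 11.7 (-1.45 and -1.92). The secreted Wnt inhibitor gene Wif1 had 13274.9 in untreated PDKC1, against 6519.1 and 1995.2 in the tumours and 191.5 and 217.3 in epidermis, and stayed at 12005.1 and 12367.2 after cyclopamine. Dkk3, a secreted protein gene expressed in the bulge, had 7756.7 in untreated PDKC1, against 834.3 and 695.8 in the tumours and 294 and 325.4 in epidermis. Each PDKC1 value is 1 array, so none of these differences was tested.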
